A study of Mus musculus with 2 samples.

Results

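Accessible regions at lncRNA-only promoters are stretches of open chromatin beside the transcription start site (TSS) of a long noncoding RNA (lncRNA) and away from the TSS of any protein-coding transcript. They were mapped by ATAC-seq, in which a transposase inserts sequencing adapters into open DNA, in hearts of WT FVB mouse embryos at E11.5. Each of the 2 biological replicates was made from a pair of microdissected hearts and carries no mutation or treatment. An ATAC-seq peak found in replicate 1 was trimmed to the part that a replicate 2 peak also covers, with a minimum overlap of 1 bp, and this part is called a shared region. A shared region was kept when its gap to a TSS of a lincRNA, antisense, processed_transcript or bidirectional_promoter_lncRNA gene of GENCODE M21 was at most 1000 bp and every protein-coding TSS lay farther than that. This gave 2392 of the 96639 shared regions on autosomes, or 2.48%, at 1955 lncRNA genes. The replicates form a single group, so conditions could not be compared, and 2 samples allow no test. Whole hearts hold muscle, endocardial, epicardial and blood cells, so that opening in fewer cells and weaker opening in each cell cannot be told apart.

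lncRNAs are transcribed by RNA polymerase II and processed much like mRNAs, but hold no long open reading frame. Many arise from promoters of their own, often beside genes of developmental regulators, and some serve as host transcripts from which small nucleolar RNAs (snoRNAs) or microRNAs are cut. In mammals, promoters rich in CpG dinucleotides tend to be open in most tissues, whereas promoters poor in CpG are more often restricted to particular cell types.

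The DNA at the summit shows both kinds. Each sequence below covers 200 bp around the replicate 1 summit of the gene's highest region with both summits inside it, and is printed on the plus strand of GRCm38/mm10. Capitals mark matches on either strand to any of 13 transcription factor motifs. The first 3 sequences represent CpG-rich regions at widely expressed host or nuclear RNAs. The other 3 represent an imprinted RNA and heart and mesoderm lncRNAs, at regions that are not CpG-rich over 500 bp around the summit. The 200 bp printed for *Meg3* still held 62.5% GC.
Mir17hg chr14:115040701-115040900: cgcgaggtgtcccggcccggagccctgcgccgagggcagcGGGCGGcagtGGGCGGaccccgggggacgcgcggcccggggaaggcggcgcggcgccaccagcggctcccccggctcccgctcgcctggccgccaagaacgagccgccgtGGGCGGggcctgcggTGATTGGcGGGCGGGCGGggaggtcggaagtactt
Snhg8 chr3:123508465-123508664: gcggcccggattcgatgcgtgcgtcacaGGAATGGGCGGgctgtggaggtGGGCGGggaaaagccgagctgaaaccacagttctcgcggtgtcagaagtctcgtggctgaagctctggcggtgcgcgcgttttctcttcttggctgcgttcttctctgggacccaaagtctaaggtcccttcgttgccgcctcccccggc
Malat1 chr19:5803584-5803783: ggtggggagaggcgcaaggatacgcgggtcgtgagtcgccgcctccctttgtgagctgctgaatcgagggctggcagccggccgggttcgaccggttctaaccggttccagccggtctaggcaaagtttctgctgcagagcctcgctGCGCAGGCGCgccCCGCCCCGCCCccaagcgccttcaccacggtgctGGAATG
Meg3 chr12:109542913-109543112: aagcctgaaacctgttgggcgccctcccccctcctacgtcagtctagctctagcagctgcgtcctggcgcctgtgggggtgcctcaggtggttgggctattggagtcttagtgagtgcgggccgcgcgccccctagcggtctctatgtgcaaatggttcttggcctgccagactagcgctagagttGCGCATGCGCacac
Tbx3os1 chr5:119575224-119575423: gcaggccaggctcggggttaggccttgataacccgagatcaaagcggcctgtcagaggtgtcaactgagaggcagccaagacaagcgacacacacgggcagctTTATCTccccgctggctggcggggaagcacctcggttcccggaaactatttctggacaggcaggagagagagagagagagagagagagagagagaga
Dnm3os chr1:162217490-162217689: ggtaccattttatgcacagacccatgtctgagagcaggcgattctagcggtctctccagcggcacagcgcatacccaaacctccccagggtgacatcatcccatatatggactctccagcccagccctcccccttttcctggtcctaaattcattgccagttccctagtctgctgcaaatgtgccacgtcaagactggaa

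The stretch at *Mir17hg*, which hosts a microRNA cluster that also acts in heart development, held 32 CG dinucleotides, against 19 at the snoRNA host *Snhg8* and 21 at *Malat1*, a nuclear speckle RNA. The stretch at *Meg3*, a maternally expressed imprinted RNA, held 12, that at *Tbx3os1*, antisense to the conduction system regulator *Tbx3*, held 9, and that at *Dnm3os*, a mesenchymal microRNA host, held 5. The summit is not always at the TSS: that of *Mir17hg* lies at -2078 bp from its nearest annotated TSS (negative upstream), in a region that covers this TSS, and the printed regions of *Malat1* and *Meg3* lie 438 and 558 bp from one. The SP/KLF motif GGGCGG occurred at *Mir17hg*, *Snhg8* and *Malat1*. At *Snhg8* one such match overlaps a TEAD match (CATTCC read on the minus strand). *Mir17hg* also carried an NFY match, and *Malat1* an NRF1 and a TEAD match. *Meg3* carried a stretch that matches NRF1 on both strands. *Tbx3os1* carried a GATA match (AGATAA on the minus strand), and the *Dnm3os* stretch none of the 13 motifs. The CG count over 200 bp does not follow the CpG class in every region, since the stretch at *Hand2os1* (not printed), which is CpG-rich over 500 bp, held 10 CG dinucleotides, 47% GC and no motif match. These matches describe letters and were not tested for binding.

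On autosomes, the lists held 115330 peaks in replicate 1 and 112033 in replicate 2. Fold enrichment, as deposited, divides the reads piled up at a peak's summit by the mean over the genome, after 1 read is added to each. Its steps show that 1 read adds 0.272 in replicate 1 and 0.251 in replicate 2 over a background of 2.68 and 2.98 reads, so a value of 7 rests on about 25 reads. Promoters of all 8 heart muscle, 4 endothelial, 4 epicardial and 3 red blood cell markers held a shared region. So did 1 of 3 nerve markers (*Snap25*, 18.2 and 13.3), 1 of 3 liver markers (*Ttr*, 4.89 and 3.77) and 1 of 2 skeletal muscle markers (*Myod1*, 4.89 and 5.53). *Neurod1*, *Stmn2*, *Alb*, *Apoa2* and *Myf5* had none.

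The label of a lncRNA-only promoter held for most regions but not for all. By the mRNAs that RefSeq curates, 50 regions (2.09%) lay within 1 kb of a protein-coding TSS, and 94 lay that close to the TSS of some other transcript of a protein-coding gene. The first count includes the region at *Zswim6*, which GENCODE M21 lists as a processed_transcript gene and where RefSeq places an mRNA start. Trimming also matters, because a region carries the fold enrichment of the whole peak. In 2023 regions (84.6%) the summits of both replicates lay inside the region, whereas in 369 a summit lay outside it. Of all regions, 73 (3.05%) were cut from a peak that reaches within 1 kb of a protein-coding TSS in at least 1 replicate. Values are therefore also given for regions with both summits inside.

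A minority of lncRNA genes had a region that met the rule. Of the 7552 autosomal lncRNA genes with a TSS over 1 kb from protein-coding TSSs, 1883 had a region there (24.9%), compared with 67.7% of protein-coding genes and 39.1% of genes of every annotated type. The measures differ, since the lncRNA share counts only regions kept by the rule and the other shares count any shared region. Genes such as *Mhrt* and *Snhg1*, whose open region also lies at a protein-coding promoter, therefore count as without a region. A shared region lay within 1 kb of 9.03% of autosomal bases. The share was 23.2% for lincRNA genes (1133 of 4888, 95% Wilson interval 22.0 to 24.4), 25.8% for antisense genes (543 of 2106, 24.0 to 27.7) and 37.7% for processed_transcript genes (204 of 541, 33.7 to 41.9). Of 17 bidirectional_promoter_lncRNA genes, 3 had a region. Genes with a TSS of the best transcript support level reached 30.4%, against 21.5% without one, and genes with a given name 34.3%, against 24.5% for those with a Gm, Rik or clone name. The intervals of the lincRNA and processed_transcript genes do not overlap. They cover counting error only, since genes are not replicates.

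Regions at lncRNA-only promoters were weaker and shorter than those at protein-coding promoters. The replicates gave them median fold enrichments of 7.06 and 6.28, compared with 18.7 and 19.1 at 17455 protein-coding promoter regions and 5.98 and 5.28 at 76792 regions away from promoters. The median at lncRNA-only promoters was 0.377 and 0.329 times that at protein-coding promoters, and 1.18 and 1.19 times that away from promoters. The order of the 3 sets was the same in both replicates, and the gap to protein-coding promoters was far wider than the difference between replicates. Fold enrichment exceeded 20 in 9.53% and 10.03% of lncRNA-only promoter regions, in 47.2% and 48.1% of protein-coding promoter regions and in 2.69% and 2.85% of regions away from promoters. Over all shared regions the share was 10.9% and 11.2%, slightly above that at lncRNA-only promoters. Median length was 443 bp, against 1106 bp and 350 bp. With a q-value limit of 1e-10 in both replicates, 1218 regions remained, whose median fold enrichment, averaged over replicates, was 10.98 in place of 6.67.

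**Figure D1:**
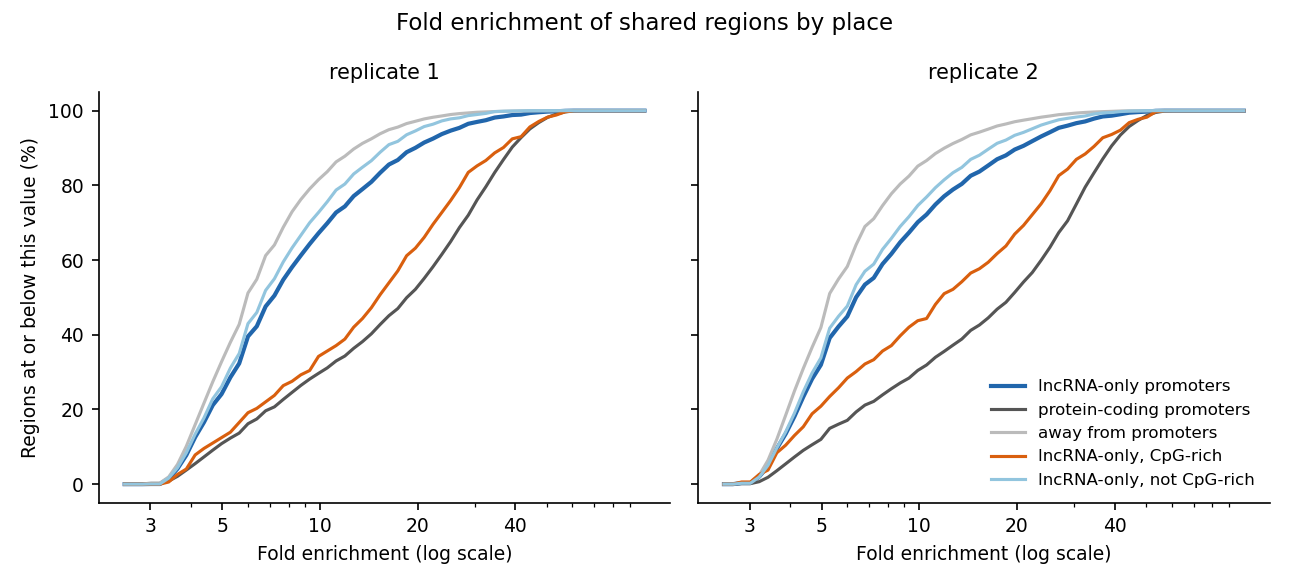
Cumulative share of shared regions (%, y axis) at or below a fold enrichment (x axis, log scale) in replicate 1 and replicate 2, for lncRNA-only promoters (2392 regions), protein-coding promoters (17455) and regions away from promoters (76792), with lncRNA-only promoters also divided by CpG content. The curve of CpG-rich lncRNA-only promoters (345 regions) lies nearest to that of protein-coding promoters, and the curve of the other 2047 lies near that of regions away from promoters.

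The replicates ranked the regions alike where the regions were well defined. Spearman's rho of fold enrichment between replicates was 0.764 across all 2392 regions, 0.902 across the 2023 with both summits inside, and 0.157 across the 369 with a summit outside. Regions are not independent replicates, and those cut from the same peak share its value. Of 131 regions whose values differed over 2-fold, 124 had a summit outside. A total of 1551 regions (64.8%) had the higher value in replicate 1. The regions with the largest difference lay at the snoRNA host *Gas5* (3.803 in replicate 1 and 42.7 in replicate 2), at *A230020J21Rik* (4.35 and 48.0) and at *Dancr* (42.7 and 4.02), each 106 to 236 bp long and with the summit of at least 1 replicate outside it. Both values of such a pair describe peaks, not the short region they share.

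**Figure D2:**
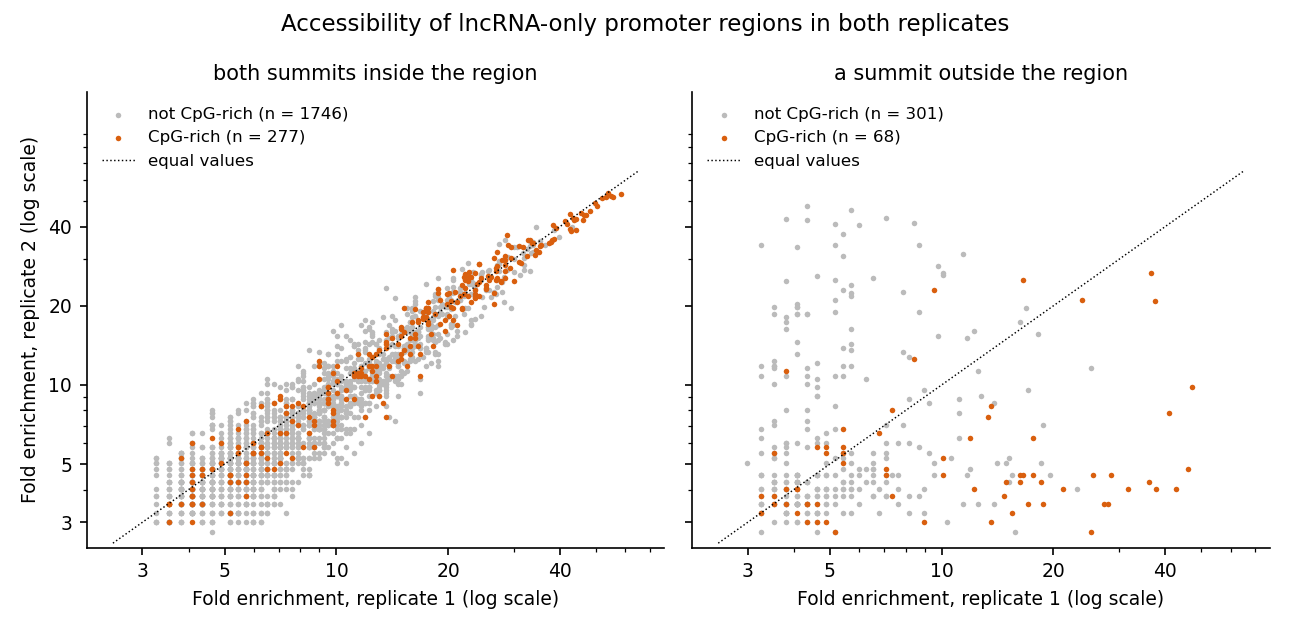
Fold enrichment in replicate 1 (x axis) against replicate 2 (y axis), both on log scales, for each region at a lncRNA-only promoter; the left panel holds regions with both summits inside and the right panel those with a summit outside. On the left the points follow the dotted line of equal values (rho 0.902), and on the right they do not (rho 0.157).

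CpG-rich regions had the higher median in both replicates. A region was called CpG-rich when the 500 bp around its replicate 1 summit had over 50% GC and over 0.6 of the CpG expected from base composition. This held for 345 regions at lncRNA-only promoters (14.4%, Wilson interval 13.1 to 15.9), for 63.4% at protein-coding promoters, for 2.45% away from promoters and for 13.75% of all shared regions, which lies inside the interval of the lncRNA-only promoters. For CpG-rich regions the median fold enrichments of the replicates were 15.2 and 11.8, against 6.79 and 6.03 for the other 2047. With both summits inside, which keeps 277 CpG-rich regions, the medians were 16.3 and 15.6, against 7.06 and 6.28. Protein-coding promoters that were CpG-rich reached 25.5 and 25.4, and those that were not reached 7.88 and 8.55. All 16 regions among the highest 1% of shared regions, and 22 of the 23 with a mean fold enrichment over 40, were CpG-rich. Below a mean of 5, 6.94% of 634 regions were. Where a summit lies outside its region, the call describes the DNA at that summit.

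**Figure D3:**
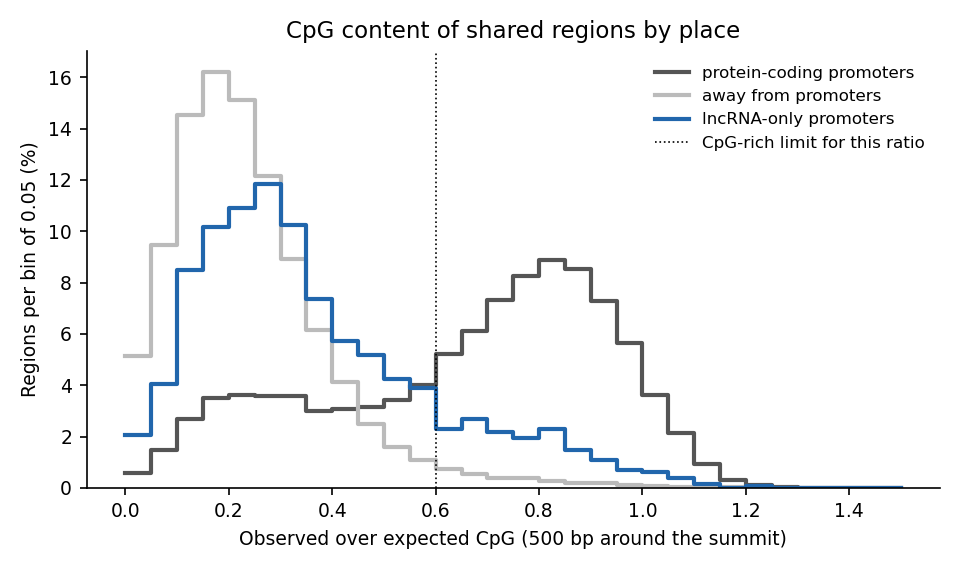
Share of regions (%, y axis) in each bin of 0.05 of observed over expected CpG (x axis), measured in 500 bp around the replicate 1 summit, for the 3 sets; the dotted line marks 0.6. Regions at lncRNA-only promoters peak between 0.25 and 0.3 with a long shoulder above 0.6, while protein-coding promoters peak above 0.8.

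Summits gathered at the annotated TSS, though less tightly than at protein-coding genes. The summit lay within 100 bp of the nearest lncRNA TSS in 33.0% of CpG-rich regions and in 24.1% of the others, against 51.9% at protein-coding promoters. Between 500 and 1000 bp from the TSS, the mean share per 100 bp was 1.54%, 2.98% and 1.201%. The summit was upstream of the TSS in 51.5% of regions. A TSS lay inside 1103 regions (46.1%), compared with 77.5% at protein-coding promoters. These had medians of 9.51 and 8.55, while the 697 regions with a TSS 1 to 500 bp off had 5.98 and 5.28 and the 592 with a TSS over 500 to 1000 bp off had 5.98 and 5.66, the level of regions away from promoters. Longer regions are more likely to cover a TSS, and median length was 633 bp with a TSS inside, 348 bp and 362.5 bp without. At the limit of 1 kb, the last regions inside had 6.79 and 5.53 (*AC112949.1*), 19.01 and 19.9 (*4930590L14Rik*) and 47.3 and 9.80 (*Gm44284*), and the first outside had 8.96 and 8.80 (*Gm12602*), 15.2 and 10.6 (*8030453O22Rik*) and 4.89 and 3.77 (*Gm12827*).

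**Figure D4:**
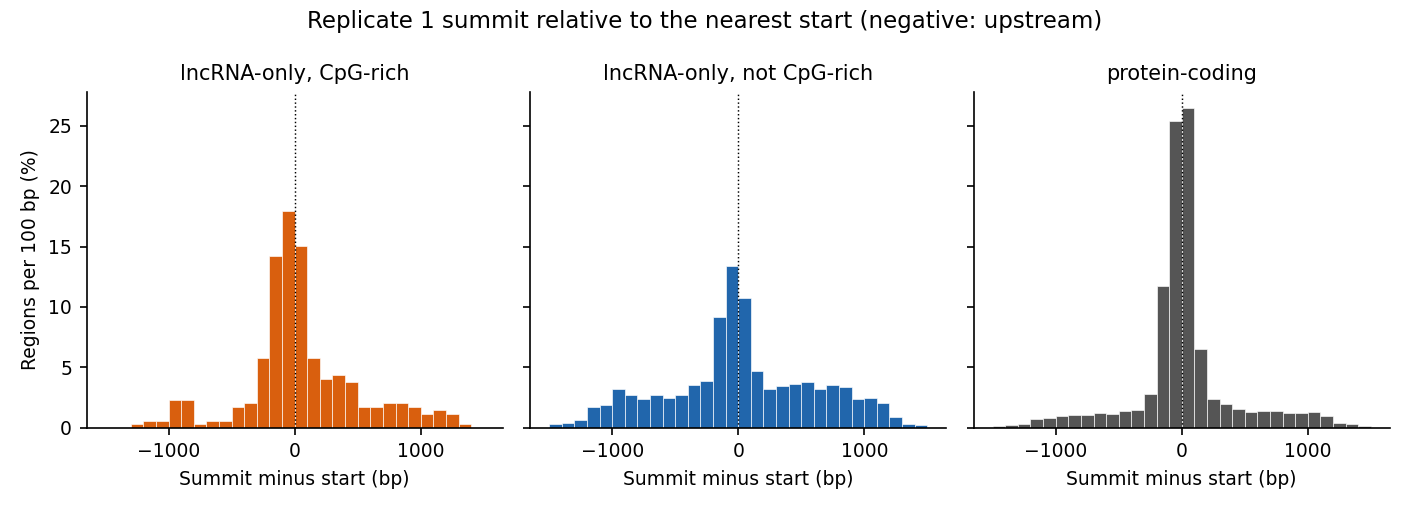
Share of regions (%, y axis) per 100 bp of distance from the replicate 1 summit to the nearest TSS (x axis, bp, negative upstream), for CpG-rich and other regions at lncRNA-only promoters (nearest lncRNA TSS) and for protein-coding promoters (nearest protein-coding TSS). The highest bars adjoin the TSS in all panels, and the flanks hold more of the regions that are not CpG-rich (2.98% per 100 bp at 500 to 1000 bp).

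Most regions stood outside protein-coding genes. Of the 2392 regions, 1717 lay outside gene bodies, 633 inside a protein-coding gene on the strand opposite to the lncRNA, 35 in one on the same strand, and 7 in genes of both strands. This split is largely set by the gene types in the rule, as 1365 regions were nearest to a lincRNA TSS and 714 to an antisense TSS. No share over all shared regions is set beside it. The median distance to the nearest protein-coding TSS was 30.8 kb. It was 1 to 10 kb for 634 regions, 10 to 100 kb for 1243 and over 100 kb for 515. CpG-rich regions made up 22.7% of the nearest group and 5.44% of the group over 100 kb, and the median fold enrichment was 7.06 and 6.54 in the former and 6.79 and 6.03 in the latter. The farthest regions were at *C130073E24Rik* (14.4 and 14.1), nearest to *Tenm3*, at *AC125184.1* (4.07 and 4.53) and at *B230208B08Rik* (16.6 and 17.4), nearest to *Ptprd* by GENCODE M21, although RefSeq places an mRNA start of *Ptprd* within 1 kb of the last of these. The summit lay in soft-masked repeat sequence in 8.53% of regions, against 5.43% at protein-coding promoters and 8.96% away from promoters.

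For all motifs searched but AGGTGTGA (TBX), the share of regions with a match lay between that of protein-coding promoters and that of regions away from promoters. Matches were counted on both strands in 200 bp around the replicate 1 summit, where different motifs may overlap. GGGCGG (SP/KLF) occurred in 17.1% of regions at lncRNA-only promoters, 50.2% at protein-coding promoters, 7.41% away from promoters and 15.4% of all shared regions. The order was reversed for AGATAA, the motif of GATA-binding factors, with 13.7%, 4.90%, 19.98% and 17.1%. The same held for CATTCC (TEAD) with 13.4%, 8.02%, 16.2% and 14.7%. An E-box of the kind bound by HAND factors, CATCTG, followed with 16.0%, 7.47%, 17.4% and 15.6%. TGANTCA (AP-1) occurred in 8.15% of lncRNA-only promoter regions and 8.38% of all regions. Among lncRNA-only promoters, GGGCGG marked 55.4% of CpG-rich regions and 10.7% of the others, and AGATAA 2.61% and 15.5%. The CTCF core was found in 4.47%, against 4.596% of all shared regions, and the NRF1 motif in 0.878%, against 1.11%. CCGGAAGT (ETS) occurred in 1.09%, CCAATCA (NFY) in 3.85% and TGACGTCA (CRE) in 0.878%, above the 0.953%, 3.16% and 0.642% of all shared regions. CACTTGA (NKX2-5) with 2.63% and TATTTATA (MEF2) with 1.34% lay below the 3.47% and 1.36% of all shared regions. AGGTGTGA occurred in 1.003%, against 0.367% at protein-coding promoters, 0.927% away from promoters and 0.828% of all. Median GC content was 51.2%, 62.2% and 48%, and its part in these shares was not tested.

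Of the 12 strongest regions, 9 belonged to lncRNAs with a Gm or Rik name, as do most lncRNA genes (7196 of 7552 have a Gm, Rik or clone name). The highest was at the lincRNA *4932412D23Rik* (chr16:42874525-42877053, 30.6 kb from *Zbtb20*), with 58.4 in replicate 1 and 53.3 in replicate 2. *Gm6410* (55.7 and 52.0), *1700096K18Rik* (54.1 and 53.6), *Gm20732* (54.9 and 52.3), *Gm26901* (53.2 and 51.8) and *1700028E10Rik* (51.9 and 51.5) followed. *Mir17hg* (chr14:115040009-115042907) had 49.7 and 49.0 and was the highest of the microRNA hosts. Next came *Gm15287* (50.3 and 48.0), *6720427I07Rik* (48.4 and 46.0), *Zswim6* (47.0 and 44.3), *Gm10433* (46.5 and 44.3) and *Snhg8* (45.6 and 45.0). In all 12, a TSS and both summits lay inside a CpG-rich region. At the other end, *Gm19719* had regions of 3.26 and 2.77 and of 3.26 and 3.27, and *Gm41307*, *2010016I18Rik* and *AC128703.1* each had 3.26 and 3.02, close to the smallest values of all shared regions (2.72 and 2.51).

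Host genes of snoRNAs had the highest median among the listed groups when 1 region per gene was taken, the highest with both summits inside. Over all 22 of their regions the medians were 11.68 and 18.6. The heart and mesoderm list was then higher in replicate 1 (13.85). The imprinted list was level in replicate 1 (11.68), and the widely expressed list in replicate 2 (18.6). The 22 regions include that of *Zfas1*, a host that is not among the 12 genes below. Without it the replicate 1 median is the 16.0 of *Snhg20*, above 13.85. Of 12 snoRNA host genes with a lncRNA-only TSS, 11 had a region (91.7%, against 24.9% of lncRNA genes and 34.3% of those with a given name). In 10 of them a region held both summits, and the highest such region per gene had medians of 35.7 and 34.8, with all 10 CpG-rich and with a TSS inside. Values were 43.7 and 42.2 at *Snhg5*, 33.7 and 34.7 at *Snhg6*, 37.8 and 34.9 at *Snhg15*, 26.1 and 25.6 at *Epb41l4aos*, 43.5 and 43.0 at *1810026B05Rik* and 42.7 and 39.2 at *Dancr*. Lower were *Snhg20* with 16.0 and 17.4, *Snhg12* with 18.5 and 18.6, and *Snhg17* with 19.01 and 17.1. *Zfas1*, whose annotated TSSs all lie within 1 kb of a protein-coding TSS, is not among the 12, but a region 414 bp from its TSS met the rule, with 4.35 and 4.02 and not CpG-rich. The exception, *Snhg1*, and *Snhg3*, *Snhg9*, *Snhg10* and *Snhg18* share an open promoter with a protein-coding gene and fall outside the rule.

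Of 12 microRNA host genes, 9 had a region (75%, against the same 24.9% and 34.3%), and medians of the highest region with both summits inside were 16.7 and 17.5 over 8 genes. *Mir22hg*, host of a microRNA abundant in muscle, reached 46.2 and 42.2 and *Dleu2*, a tumour suppressor host, 32.1 and 30.4. *Mir670hg* had 19.3 and 18.6. Hosts of blood cell microRNAs had 14.1 and 16.3 (*Mir142hg*) and 12.2 and 10.6 (*Mir155hg*). The neural hosts *Mir124-2hg* and *Mir124a-1hg* had 9.78 and 8.05, and 3.26 and 3.27 with a summit outside, and *Lncpint*, which is not neural, had 7.33 and 6.54. *Mir9-3hg*, *Mirt1* and *Mirt2* had none, with the nearest shared region 3590 bp or more away. Each replicate had a peak within 1 kb of a TSS of *Mir9-3hg* and of *Mirt1*, but no shared region lay there. *Mirt1* and *Mirt2* are named for myocardial infarction and not as microRNA hosts, and without them 9 of 10 genes had a region.

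Among 8 widely expressed lncRNAs, 6 had a region (75%, against 24.9% of lncRNA genes and 34.3% of named ones), including *Kcnq1ot1*, which is also in the imprinted list. *Malat1* had 27.2 and 28.4 at chr19:5803110-5804286, and *Neat1*, the scaffold of paraspeckles, had 20.1 and 22.4 in a region of 5485 bp at chr19:5844135-5849619 that it shares with *Frmd8os*, among the 3 longest of all. *Pvt1*, beside *Myc*, had 7 regions of 3.803 to 23.4. At *Tug1* the shared region was 34 bp long, with 4.35 in replicate 1 and 42.2 in replicate 2, and its replicate 2 peak reaches within 1 kb of the *Morc2a* TSS. *Trp53cor1*, a target of p53, had 4.35 and 4.27. *Ptprv* and *Gm26917* had none. *Ptprv* is named for a receptor tyrosine phosphatase and has a lncRNA type in the annotation used, and without it 6 of 7 genes had a region.

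Of 12 imprinted lncRNAs, 7 had a region (58.3%, against 24.9% and 34.3%), and only that of *Nespas*, antisense at the *Gnas* locus, was CpG-rich by its highest region (27.7 and 24.6). *Kcnq1ot1*, which silences neighbouring genes in cis, had the highest value at 30.2 and 33.4 (chr7:143294875-143296995). Its observed over expected CpG was 0.485. *H19* had regions of 16.8 and 15.3, 13.3 and 11.6, and 4.07 and 3.02. *Airn*, antisense to *Igf2r*, had 16.6 and 15.1. *Meg3* had 7.61 and 6.79 at its TSS and 7.88 and 7.54 in a further region 558 bp from a TSS. *A230057D06Rik* had 4.62 and 4.02. *Gm28653* had 6.79 and 4.78, but its place near *Il17a* is not known as an imprinted cluster, and without it 6 of 11 genes had a region. *Rian*, *Mirg*, *Snhg14*, *Nctc1* and *B830012L14Rik* had none. Methylation and parental alleles were not measured.

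Of 12 heart and mesoderm lncRNAs, 6 had a region (50.0%, against 24.9% and 34.3%), with medians of 15.2 and 14.96 for the highest region per gene. *Hand2os1* (upperhand), transcribed next to the cardiac regulator *Hand2*, had 5 regions, the highest at 22.3 and 23.4 and 4936 bp long. That region lies 480 bp from a *Hand2os1* TSS, with its summit at -4646 bp from that TSS (negative upstream). *Mir99ahg*, a microRNA host, reached 23.1 and 17.6, *Dnm3os* 15.5 and 14.3, and *Tbx3os1* 14.7 and 10.1. *Carmn*, host of a microRNA pair of smooth muscle and heart, had 14.9 and 15.6. *Bvht* (Braveheart), required for cardiac commitment in cultured cells, had 6.79 and 4.53. These medians lie below those of the snoRNA hosts, although the ranges of the 2 lists overlap. Over all regions of each list the order turned in replicate 1 (13.85 against 11.68) but not in replicate 2 (9.43 against 18.6). The turn in replicate 1 rests on the region of *Zfas1*, without which the snoRNA host median is 16.0. Of the 6 highest regions, 1 was CpG-rich. *Fendrr* and *Mhrt* had open regions that also lie at the protein-coding promoters of *Foxf1* (8.15 and 5.53) and *Myh6* (13.9 and 6.54). For *Rubie* the nearest shared region (19.01 and 19.1) lay 1803 bp away, and for *Mir133a-1hg* (15.5 and 10.6) 1212 bp away, so both miss the limit, although each replicate had a peak within 1 kb of a *Mir133a-1hg* TSS. *Miat* and *Gm15856* had none.

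Neural and Hox cluster lncRNAs had medians below those of all regions with both summits inside (7.61 and 6.79). Of 14 neural lncRNAs, 7 had a region (50.0%, as in the heart and mesoderm list), and the highest regions with both summits inside had medians of 6.79 and 6.28 in 6 genes. The top values were 9.51 and 8.80 at *Sox2ot*, 8.69 and 7.04 at *Rmst* and 7.33 and 7.04 at *Dlx6os1*, and 5 of these 6 regions were CpG-rich. Of the 7 neural genes without a region, 5 had an open region that also lies at a protein-coding promoter, with 26.1 and 26.7 at *Gm2694*, 21.7 and 16.6 at *Pantr1*, 17.7 and 15.1 at *Dlx1as*, 5.43 and 6.03 at *Otx2os1* and 3.26 and 4.27 at *Pax6os1*. Of 11 Hox cluster lncRNAs, 3 had a region (27.3%, near the 24.9% of lncRNA genes), at *Hoxd3os1* (5.70 and 4.02), *Haglr* (4.07 and 3.52) and *Hoxaas3* (3.53 and 5.28, a summit outside). *Hotair* and *Hottip* were among the 8 without. Among these highest regions, those that were CpG-rich stayed below 10 in both replicates in the neural list and above 16 in the snoRNA host list. Taking the highest region favours genes with more TSSs.

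**Figure D5:**
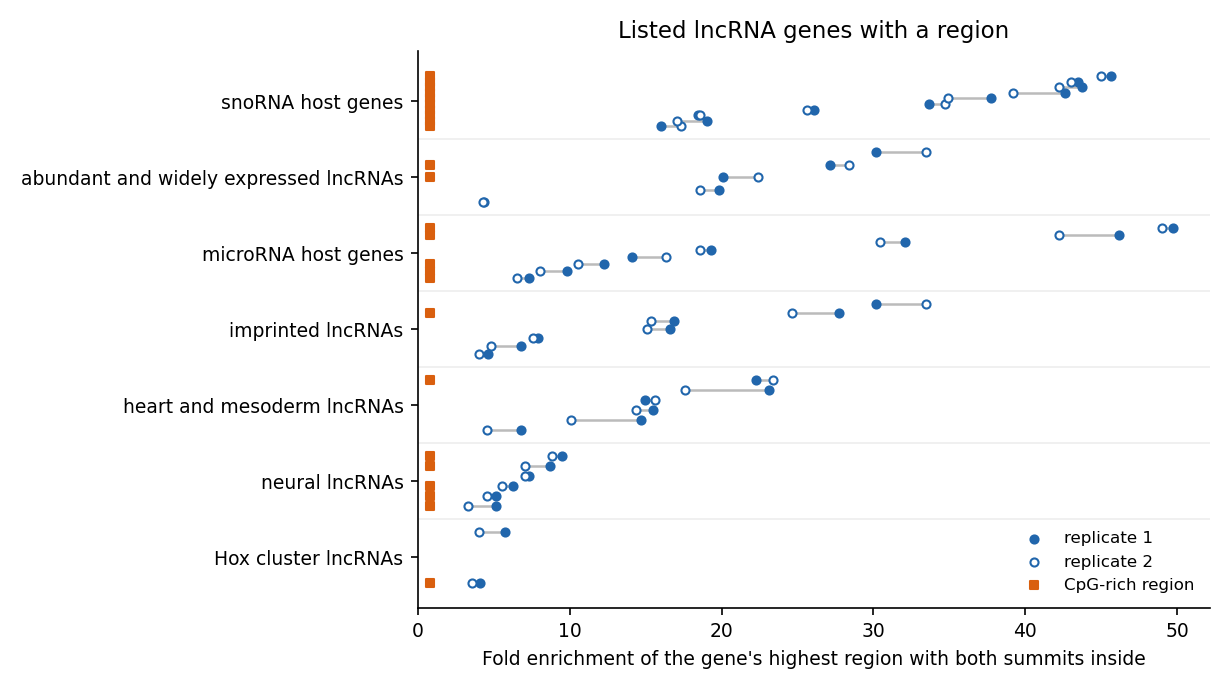
Fold enrichment (x axis) of the highest region with both summits inside for each listed lncRNA gene, with replicate 1 as filled and replicate 2 as open circles joined by a line, and orange squares at the left marking CpG-rich regions. The snoRNA host genes (medians 35.7 and 34.8) lie to the right and the neural (6.79 and 6.28) and Hox cluster genes to the left.

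Some regions lay next to genes of heart regulators. The nearest protein-coding gene was among 96 listed heart regulators for 91 regions (3.804%). The share was 1.03% of protein-coding promoter regions, 2.00% of regions away from promoters and 1.87% of all shared regions. Of the 96 genes, 42 were involved, but the same share of all protein-coding genes was not counted. Several regions at 1 gene are not independent, and *Hand2* and *Mef2c* account for 9 regions each. At *Hand2*, the regions of *Hand2os1* were joined by *5033428I22Rik* with 21.5 and 21.1. At *Mef2c*, a myocyte transcription factor, *C130071C03Rik* and *Gm26803* had regions 67.9 to 86.8 kb from its TSS, 8 of the 9 CpG-rich, with the highest at 23.6 and 22.9. Single regions reached 32.9 and 35.7 at *1700113A16Rik* near *Mef2d*, 22.3 and 19.6 at *B230312C02Rik* near *Gata5*, 20.4 and 16.8 at *C130080G10Rik* near *Actc1* (cardiac actin), and 11.7 and 11.6 at *Gm29824* near *Tbx20*. Near *Nkx2-5* (*Gm20468*), *Gata4* (*Gm49390* and *Gm5463*) and *Tbx5* (*Gm38554*) values ran from 3.52 to 7.61. No region lay within 500 kb of *Shox2*.

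Some lncRNA genes carried many regions. One region was found at 1553 genes, 2 at 309 and 3 at 69, and the most were 8 at *AC163629.2* near *Pim1* and at *C130071C03Rik* near *Mef2c*, and 7 at *Pvt1*. *AC163629.2* has 20 distinct TSSs and ranged from 3.02 to 31.4. *C130071C03Rik* has 4 and ranged from 3.52 to 23.6. The longest region, 5785 bp at *Gm38102* near *Rhof*, had 27.4 and 29.7.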

How the data were processed

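Open chromatin of 2 WT E11.5 heart samples was analysed. Per the methods of the study and the submitters' processing notes, the authors used Trim Galore 0.6.6 (cutadapt) for trimming, Bowtie2 2.4.2 for alignment to GRCm38/mm10 and SAMtools 1.12 to drop duplicates and reads of low mapping quality. MACS2 then called peaks in each replicate separately with no local background, so read-dense stretches are not corrected for their surroundings. In the deposited lists the authors give fold enrichment as a ratio, −log10 p-values and q-values, and a score made from the q-value. The shortest peaks (200 bp in both lists) and the weakest −log10 p-values (3.32 and 2.98) do not match the fragment extension and p-value limit that the methods state, so the settings behind these lists are not certain. Total reads are not given in the lists. The only measure of depth is the background (2.68 and 2.98 reads) solved from the fold steps between values, with all values whole reads within 0.05.

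Peaks on autosomes were intersected (1 bp or more), merged where they touch, and compared with GENCODE M21 starts, RefSeq mRNA starts and the GRCm38 sequence. Where several peaks overlapped a region, the highest value was taken. Members, gene lists and measures were chosen with earlier results of these data known. Named were the members at listed genes, the 12 highest, 5 lowest, 3 longest, 3 farthest from protein-coding starts and 3 most discordant, the 3 genes with most members, members next to listed heart regulators, and any within 500 kb of *Shox2*. No test was run, since 2 samples form 1 group. Wilson intervals (95%) cover counting error only. The overlap and distance code was tested on simulated data, where 4200 of 4200 overlapping pairs were found. Alternatives to thresholds, distances, annotation and replicates are given at the end, 3 of which were chosen after the data were seen. Python 3.11.15, NumPy 2.4.6, SciPy 1.17.1, pandas 2.3.3 and Matplotlib 3.10.9 were used.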

Additional observations from a re-analysis of the deposited data

Results flagged for a closer look

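The X chromosome was left out of the comparisons and held 46 further shared regions at lncRNA-only promoters of 33 genes, with medians of 8.42 in replicate 1 and 10.1 in replicate 2. The highest were at *5730405O15Rik* (33.1 and 37.5), *9530027J09Rik* (31.2 and 36.5) and *Ftx* (23.9 and 32.7). *Ftx* and *Jpx* (23.6 and 28.9) are noncoding genes of the X inactivation centre, where *Tsix* had 12.5 and 11.8.

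Peaks of a single replicate were also left out. At lncRNA-only promoters, 394 of 2699 peaks of replicate 1 (14.6%) had no counterpart in replicate 2, and 347 of 2630 peaks of replicate 2 (13.2%) had none in replicate 1. Their median fold enrichment was 4.07 and 3.52, and the highest were 6.79 at *1700052H01Rik* in replicate 1 and 9.55 at *Gm14221* in replicate 2.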

How the results depend on the processing

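No paired analysis was possible because only 1 group was measured. The values as reported were 2392 regions, 1955 genes, 24.9% of lncRNA-only promoter genes with a region, a median fold enrichment (averaged over replicates) of 6.67, ratios of 0.353 to protein-coding promoters and 1.19 to regions away from promoters, 14.4% CpG-rich regions, a Spearman's rho of 0.764, a median length of 443 bp and 51.5% upstream summits. Under every alternative run, the ratio to protein-coding promoters stayed below 1 (0.324 to 0.476) and the ratio to regions away from promoters stayed above 1 (1.14 to 1.30).

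A q-value limit of 1e-10 gave 1218 regions, 1142 genes, 14.8% of genes, a median of 10.98, ratios of 0.476 and 1.22, 20.03% CpG-rich, rho 0.856, 724.5 bp and 53.9% upstream, since it keeps the strongest peaks. A p-value limit of 0.00001 gave 23.95% of genes, a ratio of 1.201 and 469 bp. A reciprocal overlap of 50% gave 22.9% of genes, a median of 7.32, a ratio of 1.25, rho 0.907 and 511 bp. With either replicate left out, values ran from 2630 to 2699 regions, 2150 to 2222 genes, 27.4% to 28.5% of genes, medians of 5.53 to 6.25, ratios of 0.324 to 0.359 and 1.16 to 1.21, 11.9% to 12.1% CpG-rich, 480 to 487 bp and 51.1% to 51.3% upstream.

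A lncRNA TSS within 500 bp gave 20.9% of genes, a median of 7.32, ratios of 0.387 and 1.30, 16.7% CpG-rich, rho 0.813 and 498 bp, and within 2 kb 30.55% of genes, a ratio of 1.14, 11.7% CpG-rich, rho 0.717 and 412 bp. Over 2 kb from protein-coding TSSs rho was 0.799 and length 448.5 bp, and over 5 kb 12.7% were CpG-rich with rho 0.8075 and 450 bp. Excluding every transcript TSS of protein-coding genes gave a ratio of 0.4195 to protein-coding promoters. Adding further lncRNA types and unclassified TEC genes gave 21.7% of genes and 437 bp, and lincRNA and antisense genes alone gave 23.96% and 437 bp. Best-supported transcripts alone gave 1054 regions, 869 genes, 28.6% of genes, a ratio of 1.27, 18.2% CpG-rich and 473.5 bp. CpG content in 200 bp made 16.5% CpG-rich, and in the region itself 11.497%.

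Alternatives chosen after the data were seen gave 23.7% of genes, a ratio of 1.22, rho 0.902 and 500 bp with both summits inside, and rho 0.809 and 448 bp without peaks that reach protein-coding TSSs. Excluding RefSeq mRNA TSSs moved no value beyond its error. The cause of the other shifts was not tested. At this depth a region near a fold enrichment of 3 rests on about 10 reads, and the lists hold no region below their limit.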

Other observations

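Regions that serve both a lncRNA and a protein-coding TSS were left out by the rule. There were 1882 of them, 10.8% of the regions at protein-coding promoters, and with the 2392 at lncRNA-only promoters they make 4274 regions within 1 kb of a lncRNA TSS. Of listed genes, *Snhg10* (55.1 and 54.3, with *Glrx5*), *Rmrp*, the RNA of a mitochondrial and nucleolar ribonuclease (30.7 and 31.7, with *Ccdc107*), and *Pantr1* (21.7 and 16.6, with *Pou3f3*) have such a shared promoter. Of the regions at lncRNA-only promoters, 104 served more than 1 lncRNA gene, and 67 were shorter than 100 bp.

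Among the regions 1 to 10 kb from a protein-coding TSS, rho between replicates was 0.644, and over 10 kb it was 0.814. A TSS inside the region went with a rho of 0.916. The share of regions over 20 in both replicates was 186 of 2392, of which 105 were CpG-rich, and 96 further regions passed 20 in 1 replicate only.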
